A study of Mus musculus with 2 samples.

Results

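Lef1, Tcf7, Tcf7l1, Tcf7l2 and Axin2 are the 4 mammalian Tcf/Lef transcription factor genes and a standard target gene of Wnt signalling. Their unique molecular identifiers (UMIs, each standing for 1 captured RNA molecule) were followed here through keratinocytes and dermal cells of neonatal mouse skin. The members were taken by gene symbol, which gave 5 of the 56694 genes in the count matrices, with 1 entry each. They were chosen by their UMIs in these same matrices, with differences between cell classes and libraries already known, so their values are given as descriptions and none was tested.

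The cells came from back skin of C57BL/6N mice at postnatal day 2. Gli2EKO mice carried the K14Cre transgene and homozygous floxed Gli2 alleles, so that Gli2, a transcription factor of the Hedgehog pathway, was deleted in keratinocytes, and controls were floxed littermates without Cre. The Krt14 promoter that drives Cre is a keratinocyte promoter, and dermal cells are not its target. There was 1 library per genotype, made by droplet-based counting of transcript 3′ ends, and the number of mice in each was not given in the sources used here. There is therefore no replicate error and no p-value, and every 95% interval covers counting error only.

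Of 6326 control and 4296 Gli2EKO barcodes, 4457 and 3094 were kept, with a median of 11828 and 11938.5 UMIs per cell, and the libraries shared 0 barcodes. The kept cells held 3321 and 2308 keratinocytes and 889 and 654 fibroblasts. Over all kept cells Tcf7l2 had the most UMIs of the 5 genes, 14012 in the control and 7918 in Gli2EKO. Lef1 had 10531 and 5083, Tcf7l1 6235 and 3258, Axin2 1623 and 1025, and Tcf7 1606 and 1267. Cells were clustered without the 5 genes and without the other Wnt pathway genes described here, and classes were named from marker genes and called "-like" because the names were rebuilt. Clusters whose markers did not decide a name are called by their leading gene. Levels are CPM, a gene's UMIs for each 1e6 of the summed UMIs of a class in a library, which are not divided by gene length because reads were counted at transcript ends. In this report values are given for the control first and Gli2EKO second.

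Canonical Wnt signalling stabilises β-catenin, which enters the nucleus and binds Tcf/Lef factors on DNA. Without β-catenin the same factors recruit Groucho/Tle co-repressors, so that a target gene can be repressed or activated through the same site. In skin, Lef1 is known from the hair matrix, the precortex and the dermal papilla, whereas Tcf7l1 and Tcf7l2 are known from the outer root sheath and its stem cells. Axin2, a scaffold of the complex that destroys β-catenin, is itself switched on by β-catenin and so acts as negative feedback.

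In GRCm39, Lef1 lies on chromosome 3 at 130903919-131018005 on the plus strand and Tcf7 on chromosome 11 at 52143107-52174619 on the minus strand. Tcf7l1 lies on chromosome 6 at 72603354-72766589 on the minus strand, Tcf7l2 on chromosome 19 at 55730188-55922091 on the plus strand and Axin2 on chromosome 11 at 108811169-108841609 on the plus strand. All 5 genes were found in the RefSeq promoter table, with 10 start sites among them. The 250 bases upstream of each start were searched on both strands for the core letters of the Tcf/Lef binding site, CTTTGA (on the other strand TCAAAG) or CTTTGT (on the other strand ACAAAG). At least 1 match was present in 27.6% of all 32851 such windows and in 3 of the 10 windows of these genes. The windows below are shown because Lef1 differed most between the libraries in basal keratinocytes and Axin2 is the target gene among the 5. They were taken from RefSeq (table build GRCm38.p6), placed on GRCm39 by an exact match and ended before any annotated exon, with the core letters in capitals where they occur. The first is the 223 bases before Lef1, chr3:130903696-130903918, plus strand. The second lies before a start 46024 bases into Lef1, chr3:130949693-130949942, plus strand, and overlaps no annotated exon. The last is the 244 bases before Axin2, chr11:108810925-108811168, plus strand.
Lef1 upstream: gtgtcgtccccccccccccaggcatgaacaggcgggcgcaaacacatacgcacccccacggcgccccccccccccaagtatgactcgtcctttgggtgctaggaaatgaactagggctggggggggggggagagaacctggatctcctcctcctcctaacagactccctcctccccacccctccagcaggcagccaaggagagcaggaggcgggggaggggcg
Lef1 internal start: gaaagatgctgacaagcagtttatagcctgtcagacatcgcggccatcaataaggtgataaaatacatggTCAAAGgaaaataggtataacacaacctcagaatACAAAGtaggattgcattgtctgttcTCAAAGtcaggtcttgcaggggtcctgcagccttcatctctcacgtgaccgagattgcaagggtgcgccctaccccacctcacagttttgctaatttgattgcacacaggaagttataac
Axin2 upstream: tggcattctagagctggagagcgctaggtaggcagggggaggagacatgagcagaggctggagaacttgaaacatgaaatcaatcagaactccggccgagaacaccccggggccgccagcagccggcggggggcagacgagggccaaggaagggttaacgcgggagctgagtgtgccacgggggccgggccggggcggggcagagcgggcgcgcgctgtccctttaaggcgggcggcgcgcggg

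The window inside Lef1 held 3 matches, and the upstream windows of Lef1 and Axin2 held 0. A match is not a bound site, and counts at transcript 3′ ends do not tell which Lef1 start was used.

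Lef1 was highest in the hair-forming lineages of the follicle. In hair shaft-like cells, led by S100a3 and Krt35, it stood at 1546 CPM in the control (200 cells) and 1427 CPM in Gli2EKO (82 cells). Matrix-like cells, with Shh, Msx1 and Cldn10 among the leading genes, had 562 CPM (546 to 579.6) and 396 CPM (373 to 419.7). Inner root sheath (IRS)-like cells had 206 and 159.6 CPM. Lower levels were found in interfollicular epidermis (IFE), with 69.5 and 170.1 CPM in IFE basal-like and 46.9 and 27.2 CPM in IFE suprabasal-like cells. Outer root sheath (ORS)-like cells had 18.9 and 7.51 CPM, companion-like cells 24.8 and 13.6 CPM and sebocyte-like cells 8.75 and 2.46 CPM. In the control, intervals did not overlap between hair shaft-like, matrix-like, IRS-like, IFE basal-like and IFE suprabasal-like cells, in that order. In Gli2EKO the IFE basal-like and IRS-like classes changed places, with overlapping intervals.

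Endothelial and smooth muscle cells, in which Lef1 is not a marker, served as the comparison for free RNA. Lef1 was there at 6.94 CPM (1.89 to 17.8, 4 UMIs in 49 cells) in the control and at 0 UMIs in 28 Gli2EKO cells, with an interval of up to 14.4 CPM. The intervals of ORS-like and sebocyte-like cells overlapped this range in both libraries, and those of matrix-like, hair shaft-like, IRS-like and IFE basal-like cells did not. Immune cells without T cell or innate lymphoid genes were higher in the control, at 93.4 CPM (59.2 to 140.1, 34 cells). That interval holds the control level of IFE basal-like cells. Without 2 cells that held 21 of the 23 UMIs, 8.12 CPM remained. In Gli2EKO these immune cells had 0 UMIs in 6 cells, with an interval of up to 59.2 CPM.

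**Figure D1:**
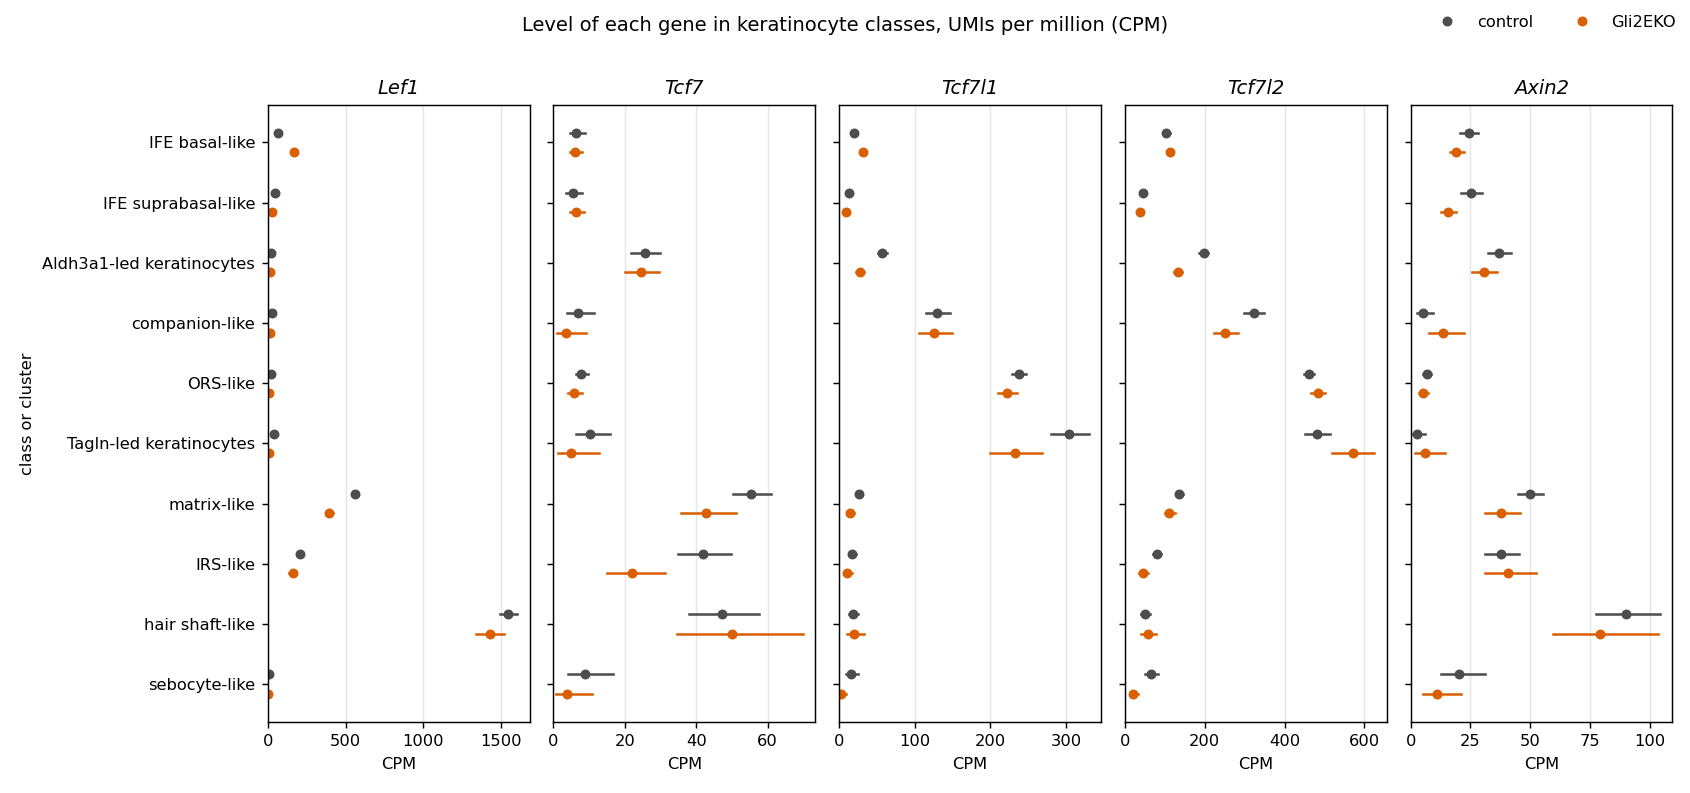
Levels of the 5 genes in keratinocyte classes and unnamed clusters (vertical axis) in CPM (horizontal axis), for control and Gli2EKO cells with 95% Poisson intervals. Lef1 peaks in hair shaft-like and matrix-like cells, and Tcf7l1 and Tcf7l2 in ORS-like and Tagln-led cells.

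Tcf7l1 and Tcf7l2 had another distribution. Tcf7l1, also called TCF3 and known as a repressor in follicle stem cells, stood at 237 CPM (228 to 247) in control and 222 CPM (210.1 to 234) in Gli2EKO ORS-like cells. It was also high, at 304 and 232 CPM, in the unnamed Tagln-led keratinocytes, whose leading genes include the smooth muscle marker Acta2. It was only 26.9 and 14.5 CPM in matrix-like and 18.2 and 19.1 CPM in hair shaft-like cells. ORS-like cells held 59.9% of keratinocyte Tcf7l1 UMIs in the control and 60.4% in Gli2EKO, while they were 25.96% and 22.4% of keratinocytes.

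Tcf7l2, also called TCF4, was found in every keratinocyte class. ORS-like cells had 461 CPM (448 to 474) and 484 CPM (466 to 502), and companion-like cells 322 and 252 CPM. IFE basal-like cells had 104 and 113 CPM, IFE suprabasal-like cells 46.1 and 37.9 CPM and hair shaft-like cells 51.1 and 57.4 CPM. The level in ORS-like cells was 3.39-fold that of matrix-like cells in the control and 4.33-fold in Gli2EKO.

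Tcf7, which encodes TCF1 and is best known from T cells, had low levels in keratinocytes. It reached 55.5 and 42.9 CPM in matrix-like, 47.1 and 50.01 CPM in hair shaft-like and 41.8 and 22.1 CPM in IRS-like cells. In IFE basal-like cells it was 6.46 and 6.11 CPM. Axin2 was highest in the same lineages as Lef1, with 90.1 and 79.4 CPM in hair shaft-like and 50.03 and 38.02 CPM in matrix-like cells. It was 24.3 and 19.1 CPM in IFE basal-like and 6.66 and 5.12 CPM in ORS-like cells. The unnamed Aldh3a1-led cluster, with Scube2, Sostdc1 and Lgr6 among its leading genes, had 36.9 and 30.7 CPM of Axin2 at 21.97 and 17.8 CPM of Lef1.

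The levels were compared over 26 clusters or cell types with at least 20 cells in each library, each library being a point (52 points). Pearson's r of log2(CPM + 10) was 0.70 between Lef1 and Axin2 and 0.85 between Tcf7l1 and Tcf7l2. It was -0.20 between Lef1 and Tcf7l2 and -0.40 between Axin2 and Tcf7l1. The points share 2 libraries and differ in depth, so these are descriptions. Among 11345 genes with at least 500 UMIs, the 5 most like Lef1 were Tnfrsf19 (r = 0.85), Robo1, Tmeff1, Sirt1 and Grik4 (r = 0.78). For Axin2 they were Tnfrsf19 (r = 0.81), Ddx55, Lef1, Kremen1 and Snhg20 (r = 0.69). Tcf7 was most like Nkd1 (r = 0.80), a Wnt feedback inhibitor gene, followed by Pvt1, Tctn3, Rnf157 and Slco5a1 (r = 0.75). Tcf7l1 was most like Cald1 (r = 0.92), Rbms3, Klhl29, Msrb3 and Kalrn (r = 0.86). Tcf7l2 was most like Kirrel (r = 0.86), Tcf7l1, Mpdz, Arhgef10 and Il11ra1 (r = 0.83).

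**Figure D2:**
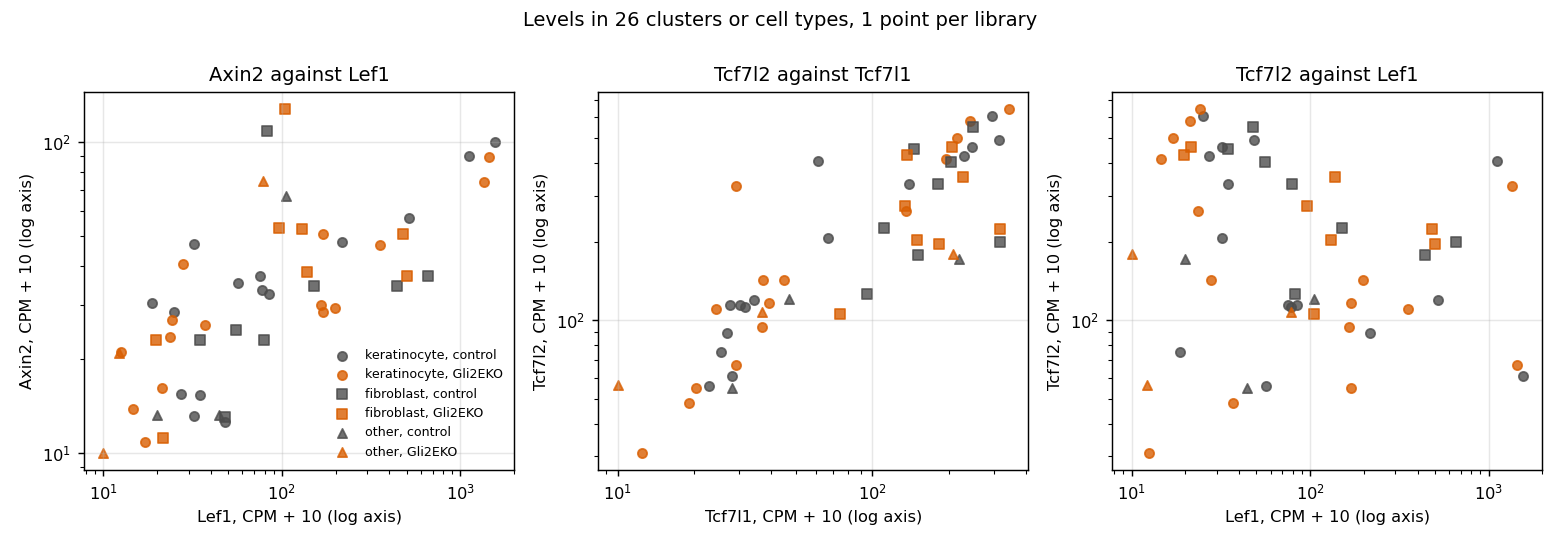
Level of one gene against another in 26 clusters or cell types, as CPM + 10 on log axes, with 1 point for each library. Axin2 is high where Lef1 is high (r = 0.70), Tcf7l2 follows Tcf7l1 (r = 0.85), and Tcf7l2 has no such relation with Lef1 (r = -0.20).

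Over all keratinocytes, all 5 genes had lower levels in Gli2EKO than in the control. Lef1 was 196 and 125 CPM, a log2 ratio (Gli2EKO over control) of -0.65 (-0.70 to -0.60). Tcf7 was 21.5 and 13.1 CPM (log2 ratio -0.71), Tcf7l1 92.8 and 64.4 CPM (-0.53), Tcf7l2 220.1 and 175 CPM (-0.33) and Axin2 28.00 and 20.6 CPM (-0.44). The median log2 ratio over all 15633 genes with at least 50 UMIs was -0.14. Lef1 and Tcf7, 2 of the 5 members, were lower by at least 1.5-fold, as were 9.8% of all genes, and 0 were higher, as were 4.27%.

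The make-up of the keratinocytes differed at the same time. Matrix-like cells were 15.2% of control and 8.23% of Gli2EKO keratinocytes, and IFE basal-like cells 12.2% and 25.95%. With the Gli2EKO clusters weighted to the control's shares, the log2 ratios were -0.17 for Lef1, -0.33 for Tcf7, -0.22 for Tcf7l1, -0.064 for Tcf7l2 and -0.27 for Axin2.

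IFE basal-like cells were the only named keratinocyte class in which the Lef1 level was higher in Gli2EKO. These cells, 406 in the control and 599 in Gli2EKO, were named from Krt5 and Krt14, keratins of the proliferative layer, with Thbs1, Avpi1, Ly6a, Ccl27a, Cdh13 and Igfbp3. Lef1 had 452 UMIs, 69.5 CPM (63.3 to 76.2), in the control and 1503 UMIs, 170.1 CPM (162 to 179), in Gli2EKO. The Gli2EKO level was 2.45-fold that of the control, a log2 ratio of 1.29 (1.14 to 1.45), and the intervals of the levels did not overlap. Lef1 and Tcf7l1, 2 of the 5 members, were higher by at least 1.5-fold, as were 3.15% of 10975 genes, and 0 members were lower by as much, as were 5.07%. A higher ratio than that of Lef1 was found for 0.565% of genes. The class held 4.99% of keratinocyte Lef1 UMIs in the control and 35.97% in Gli2EKO.

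All 3 clusters of the class had this direction. In the Sox6-led cluster Lef1 was 74.9 and 187 CPM and in the dividing, H19-led cluster 64.95 and 159 CPM. The Ifi202b-led cluster, which has the stress genes Atf3 and Fosl1 among its leading genes, had 67.8 and 155 CPM. Median depth in the class was 14786 and 13775 UMIs per cell and the median mitochondrial share 2.69% and 2.53%. Relative to matrix-like cells, the Lef1 level in IFE basal-like cells was 8.09-fold lower in the control and 2.33-fold lower in Gli2EKO.

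Counted per cell, Lef1 was found in more Gli2EKO basal cells and with more UMIs in each. With each cell thinned to 2000 UMIs, 12.1% (9.09 to 15.7) of 405 control cells and 27.9% (24.3 to 31.6) of 596 Gli2EKO cells had at least 1 Lef1 UMI (exact binomial intervals), with 1 and 3 shallower cells left out. The unthinned shares were 43.3% and 67.3%. Immune cells without T cell or innate lymphoid genes, at a median depth of 5078.5 and 11618 UMIs, gave 3 of 34 control cells, a share of 8.82% (1.86 to 23.7), and 0 of 5 Gli2EKO cells. Of the 23 Lef1 UMIs in the unthinned control immune cells, 21 were in 2 cells. The share of IFE basal-like cells lay within the interval of the immune cells of the same library in both, since 0 of 5 cells has an interval of up to 52.2%. At 5000 UMIs per cell, 1.84% of 381 control and 11.3% of 564 Gli2EKO basal cells had 3 or more Lef1 UMIs. In matrix-like cells this share was 45.8% in the control and 31.7% in Gli2EKO.

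**Figure D3:**
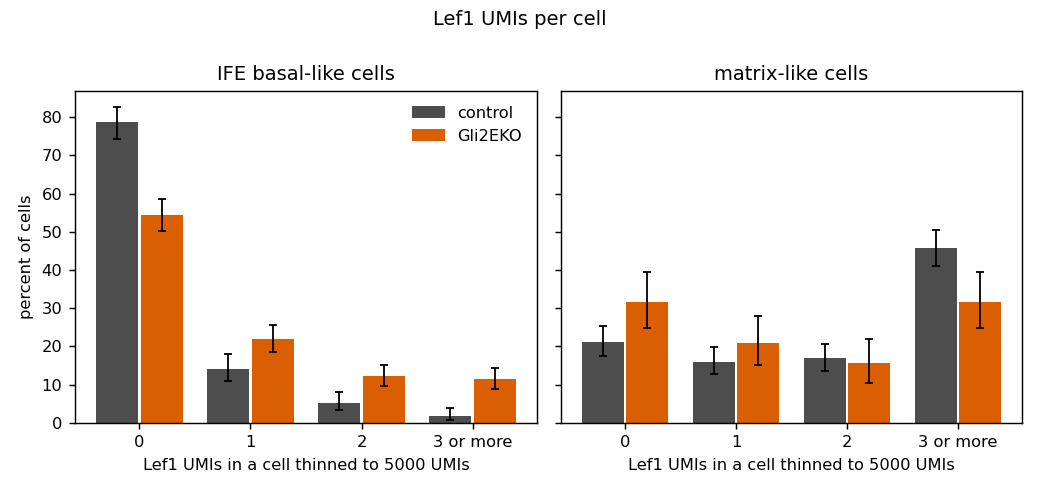
Share of cells (vertical axis, percent) by number of Lef1 UMIs per cell after thinning to 5000 UMIs (horizontal axis), in IFE basal-like and matrix-like cells of each library, with exact binomial 95% intervals. IFE basal-like cells without a Lef1 UMI were 78.7% in the control and 54.4% in Gli2EKO.

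Markers of the hair matrix went in both directions in the same cells. The summed level of the 7 matrix markers in IFE basal-like cells was 23.2 and 17.2 CPM, against 807 and 602 CPM in matrix-like cells. Among them Edar, a receptor gene needed for hair placodes, had 5.54 and 11.7 CPM, while Shh had 7 and 0 UMIs. Of the other follicle genes the keratin Krt17 had 686 and 1033 CPM and Lhx2 11.7 and 2.38 CPM. The summed level of 10 follicle genes, Krt17 among them, was 808 and 1088 CPM. The other 9 (Shh, Msx1, Cldn10, Krt71, Krt25, Krt35, Lhx2, Sox9 and Tgfb2) served as a filter. It did not cover Krt17 or Edar, so cells with UMIs of these were not removed for them. In the 207 control and 391 Gli2EKO cells without a UMI of the 9 genes, Lef1 was 75.2 and 186 CPM, a log2 ratio of 1.31 (1.10 to 1.52). In keratinocytes gated by marker UMIs rather than by class, Lef1 was 77.8 and 183 CPM, a log2 ratio of 1.23. The gate was not independent of the clustering, which had set keratinocytes apart from other cells. Of the gated cells, 86.96% lay in the IFE basal-like clusters.

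Further genes of the same cells are given here after their values were seen. Ptch1, the Hedgehog receptor gene and a target of that pathway, had 42.8 and 146 CPM, Gli1 2.77 and 8.94 CPM and Gli2 60.5 and 111 CPM. Counts at the 3′ end need not fall in the deleted exons, so the Gli2 level does not check the deletion. Dcn, a proteoglycan gene that also led matrix-like cells, had 24.8 and 166 CPM, while the dermal collagen gene Col1a1 had 34.9 and 25.1 CPM. The basal marker Igfbp3 had 136 and 31.1 CPM and Ccl27a 568 and 327 CPM. Of the other markers that named the class, Thbs1 had 325 and 231 CPM, Cdh13 655 and 411 CPM and Avpi1 221 and 209 CPM. Krt14 had 15158 and 17221 CPM, Krt5 9330 and 10118 CPM and Ly6a 55.5 and 73.5 CPM, and the summed level of the 8 markers was 26449 and 28620 CPM.

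Among 10 genes counted in basal cells with and without a Lef1 UMI, Dcn was found more often in Gli2EKO cells that had Lef1. Krt17 was found less often in those cells when thinned, but not when unthinned. With cells thinned to 5000 UMIs, 37.7% (31.8 to 43.98) of 257 Gli2EKO cells with a Lef1 UMI and 17.9% (13.8 to 22.7) of 307 cells without one had a Dcn UMI. In the control the shares were 8.64% of 81 and 7.67% of 300 cells. Axin2 was found in 11.7% (8.02 to 16.2) of Gli2EKO cells with and 9.77% (6.69 to 13.7) of those without a Lef1 UMI, with overlapping intervals. Krt17 was found in 58.4% (52.1 to 64.5) with and 70.4% (64.9 to 75.4) without a Lef1 UMI in Gli2EKO, and in the control in 38.3% and 62.3%. Ptch1 was found in 44.7% (38.6 to 51.1) with and 33.2% (27.98 to 38.8) without a Lef1 UMI in Gli2EKO, with overlapping intervals. Those of the other 6 genes overlapped in both libraries. Unthinned Gli2EKO cells with and without Lef1 had median depths of 14268 and 12984.5 UMIs. Among them Krt17 was found in 78.9% and 78.6%, Dcn in 50.1% and 22.4%, Axin2 in 26.6% and 15.8% and Ptch1 in 66.0% and 43.9%. In unthinned control cells Krt17 was found in 72.7% and 83.0% and Axin2 in 26.7% and 28.7%. The Krt17 and Axin2 results in Gli2EKO thus depended on thinning. Without all cells that had a Dcn or Edar UMI, 305 control and 331 Gli2EKO cells remained and the log2 ratio of Lef1 was 1.14 (0.94 to 1.35).

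Of the other factors in IFE basal-like cells, Tcf7l1 had 19.5 and 31.2 CPM (log2 ratio 0.68, 0.37 to 0.99), but the ratio was -0.19 (-0.41 to 0.027) when no doublets were removed. Tcf7l2 had 104 and 113 CPM (0.12, -0.026 to 0.26), and its ratio was -0.24 (-0.35 to -0.13) without doublet removal. Tcf7 had a log2 ratio of -0.080 (-0.69 to 0.54). Axin2, the target gene, had 24.3 and 19.1 CPM, a log2 ratio of -0.35 (-0.67 to -0.023).

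The remaining Wnt pathway genes of these cells are given against the whole class, where 3.15% of genes were higher and 5.07% lower by at least 1.5-fold. Among 13 further β-catenin feedback and target genes, 7 had at least 50 UMIs in the class, 0 were higher and 1, the receptor gene Lgr5 (13.4 and 3.74 CPM), was lower by at least 1.5-fold. Their median log2 ratio was -0.32, against -0.035 for all genes. Of 12 partners of Tcf/Lef factors, 11 were measured and 0 passed 1.5-fold in either direction, with Ctnnb1, the β-catenin gene, at 175 and 185 CPM. All 7 genes of the destruction complex list were measured and 0 passed 1.5-fold. Of 29 Wnt ligand, secretion and receptor genes, 21 were measured, 3 were higher and 1 was lower. The higher ones were the ligand genes Wnt6 (64.9 and 105 CPM), Wnt7a (6.15 and 17.1 CPM) and Wnt7b (48.6 and 97.4 CPM), and the lower one was the receptor gene Fzd7 (8.15 and 4.98 CPM). The median log2 ratio of these genes was -0.0062.

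**Figure D4:**
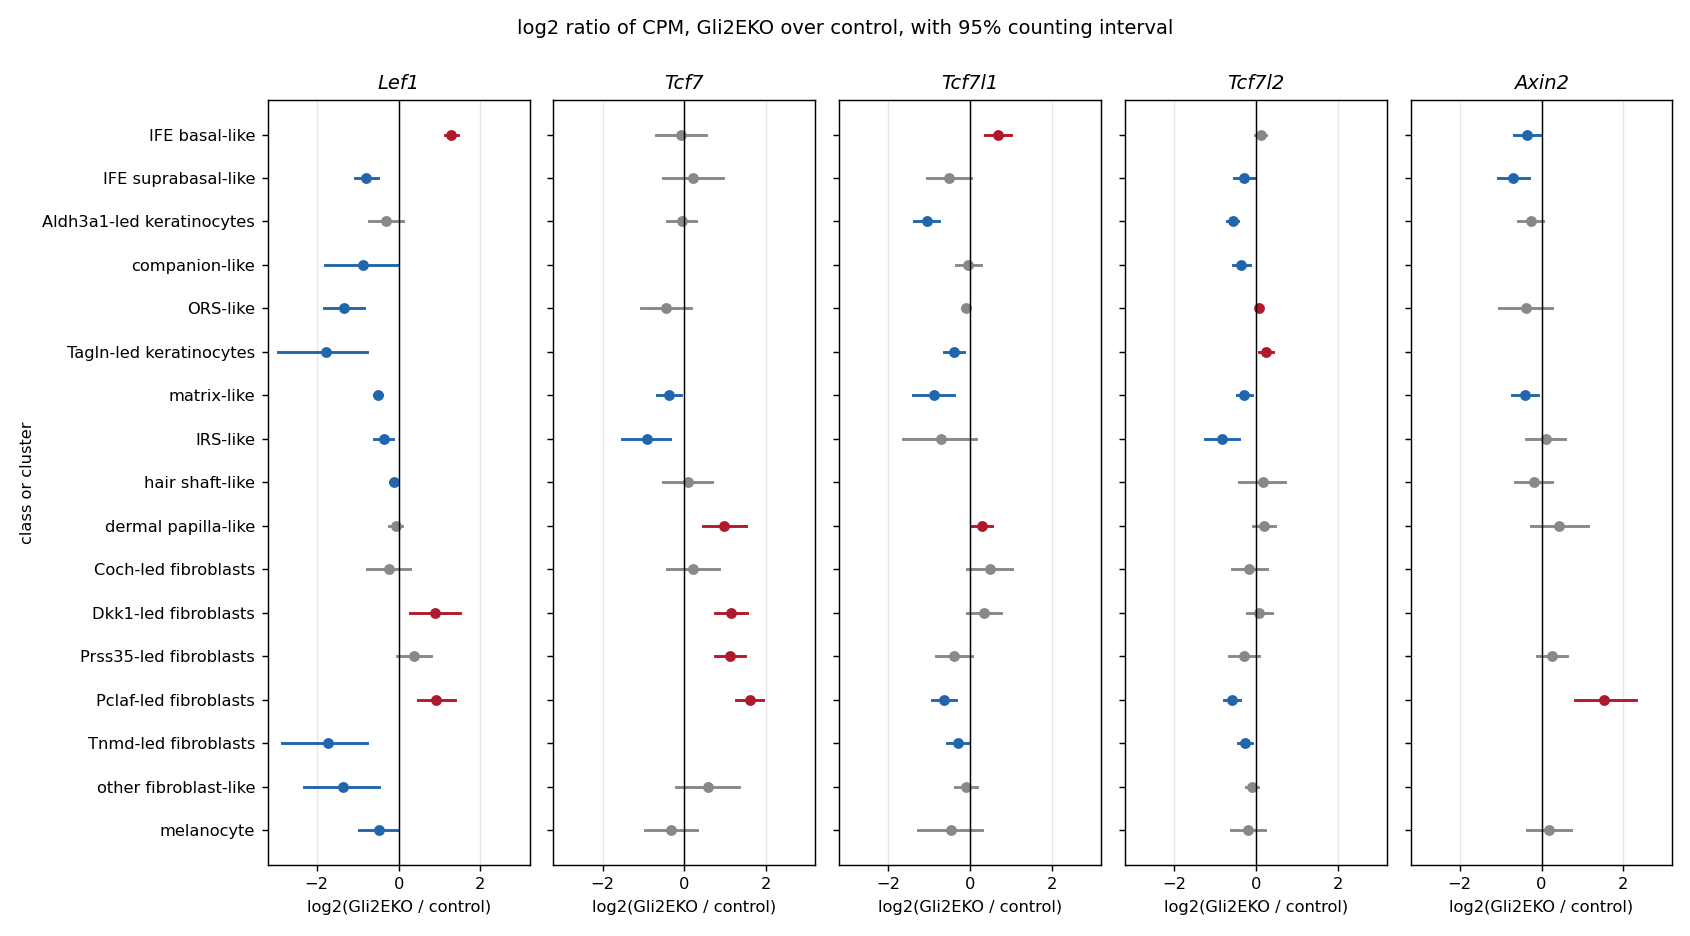
log2 ratio of CPM, Gli2EKO over control (horizontal axis), for each gene in classes and clusters (vertical axis), with 95% counting intervals that lie above 0 (red), below 0 (blue) or span 0 (grey). Lef1 is at 1.29 in IFE basal-like cells and at -0.51 in matrix-like cells, and Tcf7 is at 1.596 in Pclaf-led fibroblasts.

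In the follicle, Lef1 levels were lower in Gli2EKO. Matrix-like cells (504 and 190) had a log2 ratio of -0.51 (-0.60 to -0.41), which did not reach 1.5-fold, and of the 5 members only Tcf7l1 did, at 26.9 and 14.5 CPM, where 7.6% of genes were lower by as much. The clusters of the class differed, with Lef1 at 508 and 343 CPM in the Dcn-led cluster and 1108 and 1338 CPM in the Sox5-led cluster. The Sox5-led cluster had 109 and 29 cells, 5999 and 4942 UMIs per cell and mitochondrial shares of 8.83% and 10.9% (medians). Over all matrix-like cells, the summed level of the 8 IFE basal markers was 1074 and 2735 CPM. Both ORS marker lists had 610 and 1323 CPM (7 genes) and 1340 and 1339 CPM (6 genes). The 7 matrix markers had 807 and 602 CPM. The part of these differences in the ratios of the class was not tested. In IRS-like cells the log2 ratio of Lef1 was -0.37 (-0.59 to -0.15) and in hair shaft-like cells -0.12 (-0.22 to -0.011). In ORS-like cells it was -1.33 (-1.83 to -0.85), at levels that overlapped those of endothelial and smooth muscle cells, and -0.081 (-1.07 to 0.86) in the cluster that kept the name under a stricter minimum score.

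In IFE suprabasal-like cells the log2 ratio of Lef1 was -0.79 (-1.07 to -0.50). Lef1 and Axin2 were the 2 members lower by 1.5-fold there, as were 6.97% of genes. The summed level of 6 hair shaft markers in these cells was 203 and 27.2 CPM, and the share of cells with a Lef1 UMI at 2000 UMIs was 5.07% and 5.79%, so that the share did not follow the level. The part of hair shaft RNA in the Lef1 ratio was not tested.

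Axin2 had a log2 ratio of -0.40 (-0.72 to -0.086) in matrix-like and -0.69 (-1.07 to -0.30) in IFE suprabasal-like cells. Tcf7l1 was 56.9 and 27.2 CPM in the Aldh3a1-led cluster (-1.06, -1.38 to -0.76), where it was the 1 member lower by 1.5-fold, as were 9.87% of genes. In ORS-like cells, where both are high, Tcf7l1 had a log2 ratio of -0.096 (-0.19 to 0.00059) and Tcf7l2 of 0.069 (0.0018 to 0.14). In IRS-like cells Tcf7, Tcf7l1 and Tcf7l2 were lower by at least 1.5-fold, as were 11.1% of genes, with Tcf7l2 at 79.2 and 44.9 CPM. Among 10 measured β-catenin targets of matrix-like cells, 2 were higher, the transcription factor gene Sp5 (7.58 and 24.2 CPM) and Lgr5 (60.1 and 105 CPM). Notum (21.7 and 12.8 CPM) and Bambi (46.97 and 20.4 CPM) of the same list were lower.

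The members past 1.5-fold were counted the same way in the other keratinocyte classes, with the percent of all genes past it as background. No member was higher in these classes, and up to 3 of 5, in IRS-like cells, were lower. In matrix-like cells 0 were higher (background 4.64%) and 1, Tcf7l1, was lower (background 7.6%). In IRS-like cells 0 were higher (background 3.94%) and 3, Tcf7, Tcf7l1 and Tcf7l2, were lower (background 11.1%), and in hair shaft-like cells 0 were higher (background 6.06%) and 0 were lower (background 7.29%). In ORS-like cells 0 were higher (background 2.46%) and 1, Lef1, was lower (background 4.45%), and in companion-like cells 0 were higher (background 4.66%) and 1, Lef1, was lower (background 8.21%). In the Aldh3a1-led cluster 0 were higher (background 2.4%) and 1, Tcf7l1, was lower (background 9.87%), and in the Tagln-led cluster 0 were higher (background 5.78%) and 1, Lef1, was lower (background 8.06%). In IFE suprabasal-like cells 0 were higher (background 2.69%) and 2, Lef1 and Axin2, were lower (background 6.97%). Members with under 50 UMIs in a class were not counted, which left 4 in hair shaft-like and 3 in companion-like and Tagln-led cells.

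Dermal cells expressed all 5 genes as well. Lef1 marked the dermal papilla, the mesenchymal centre that signals to the follicle. In dermal papilla-like cells, named from Corin, Sox18, Enpp2, Alx4, Crabp1, Ndnf and Fgf10, it stood at 506 CPM in the control (193 cells) and 481 CPM in Gli2EKO (153 cells). Other fibroblast-like cells, led by Fabp4 and Ly6a, had 24.6 and 9.64 CPM, and in Gli2EKO this was 14 UMIs with an interval (5.27 to 16.2 CPM) that reached into the range of the endothelial and smooth muscle cells. Tcf7l2 ran the other way, with 175 and 201 CPM in dermal papilla-like and 444 and 418 CPM in other fibroblast-like cells. Tcf7l1 had 199.6 and 245 CPM and 136 and 127 CPM in these classes. Axin2 was highest among fibroblasts in the Prss35-led cluster, at 98.3 and 118 CPM. The markers that named dermal papilla-like cells differed between the libraries. Corin had 976 and 774 CPM there, Enpp2 1621 and 908, Crabp1 1334 and 717, Ndnf 436 and 137, Fgf10 483 and 255 and Alx4 442 and 400 CPM. Sox18 went the other way, at 402 and 469 CPM. The part of these differences in the Lef1 and Tcf7 ratios of the class was not tested.

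**Figure D5:**
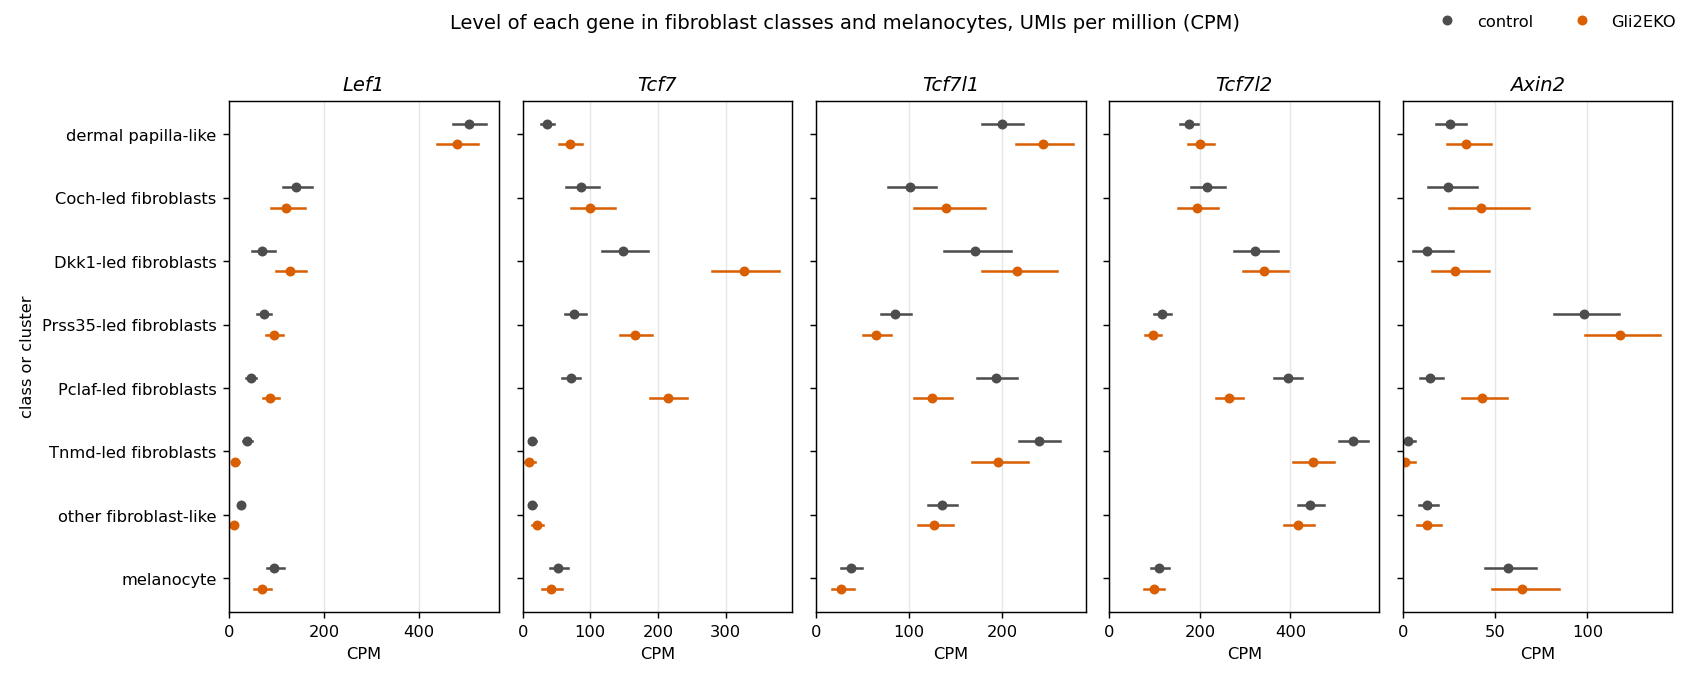
Levels of the 5 genes in fibroblast classes and clusters and in melanocytes (vertical axis), in CPM (horizontal axis), for control and Gli2EKO cells with 95% Poisson intervals. Lef1 peaks in dermal papilla-like cells, Axin2 in Prss35-led cells and Tcf7 in Dkk1-led cells, at 149 and 327 CPM.

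Tcf7 was the member that differed most between the libraries in fibroblasts. Over all fibroblasts it had 477 UMIs, 45.9 CPM, in the control and 773 UMIs, 115 CPM, in Gli2EKO. The log2 ratio was 1.33 (1.16 to 1.49), and 0.996 with clusters weighted to the control's shares. Tcf7 and Axin2, 2 of the 5 members, were higher by at least 1.5-fold, as were 2.96% of 12464 genes, and 0 members were lower, as were 5.45%. A higher ratio than that of Tcf7 was found for 0.273% of genes.

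The difference was present in several fibroblast clusters. Tcf7 was 149 and 327 CPM in Dkk1-led cells, where it was itself among the leading genes, 76.5 and 166 CPM in Prss35-led cells and 70.9 and 214 CPM in dividing, Pclaf-led cells, with no overlap of the intervals. In dermal papilla-like cells it was 35.4 and 69.5 CPM, a log2 ratio of 0.97 (0.45 to 1.51). Within its clusters the ratio was 0.44 (-0.74 to 1.56) in Dcc-led (115 and 69 cells) and 0.71 (0.089 to 1.34) in Prokr2-led cells (78 and 84 cells), both below that of the class. In Coch-led cells it was 86.1 and 100.2 CPM and in Tnmd-led cells 14.02 and 9.23 CPM, with overlapping intervals. At 2000 UMIs per cell, a Tcf7 UMI was found in 14.4% (8.76 to 21.8) of 125 control and 38.5% (29.6 to 47.9) of 117 Gli2EKO Prss35-led cells.

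Lef1 over all fibroblasts was 127 and 126 CPM, a log2 ratio of -0.0093 (-0.14 to 0.12). In dermal papilla-like cells the log2 ratio was -0.074 (-0.24 to 0.090). Lef1 levels were higher in Gli2EKO in Pclaf-led (45.6 and 86.5 CPM) and Dkk1-led cells (69.6 and 128 CPM) and lower in Tnmd-led (38.04 and 11.5 CPM) and other fibroblast-like cells. Axin2 over all fibroblasts was 24.8 and 41.4 CPM, a log2 ratio of 0.74 (0.49 to 0.99), and in Pclaf-led cells 14.8 and 42.9 CPM. Tcf7l1 and Tcf7l2 over all fibroblasts had log2 ratios of -0.16 (-0.27 to -0.045) and -0.25 (-0.34 to -0.17).

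Of the 13 β-catenin targets, 10 were measured over all fibroblasts, 3 were higher by 1.5-fold and 1 was lower. The higher ones were the feedback inhibitor genes Nkd1 (84.1 and 158 CPM), Nkd2 (65.1 and 103 CPM) and Apcdd1 (158 and 289 CPM), and the lower one was Notum (15.98 and 7.59 CPM). The median log2 ratio was 0.35, against -0.018 for all genes. In Pclaf-led cells 5 of 8 measured targets were higher, as were 5.09% of all genes, and in Dkk1-led cells 4 of 6, as were 7.64% of all genes. Other fibroblast-like cells, where Lef1 was lower and Tcf7 did not pass 1.5-fold, also had 4 of 6 higher (background 4.58%). The counts of higher targets were 2 of 6 in Prss35-led (6.23%), 2 of 8 in dermal papilla-like (5.2%), 2 of 7 in Coch-led (6.93%) and 0 of 4 in Tnmd-led cells (4.49%). Lower by 1.5-fold were 2 of 7 in Coch-led (background 7.13%) and 1 of 8 in dermal papilla-like cells (5.54%). In the other fibroblast classes and clusters given here 0 were lower (background 7.14% to 8.44%). Of the 12 partners and 7 destruction complex genes, all measured over all fibroblasts, 0 passed 1.5-fold. Krt14, a gauge of keratinocyte RNA among fibroblasts, stood at 123 and 102 CPM there, against 4400 and 7944 CPM in keratinocytes. The share of IFE basal-like cells among keratinocytes, 12.2% and 25.95%, differed as well. In all fibroblasts the summed level of 8 IFE basal markers was 989 and 975 CPM and of 9 IFE suprabasal markers 230 and 235 CPM. That of 10 follicle genes was 207 and 126 CPM and of 5 melanocyte markers 16.3 and 39.4 CPM. The part of RNA from other cells in the fibroblast ratios was not tested. The summed level of 5 dermal genes, mostly collagens, in Prss35-led cells was 37957 and 26258 CPM, and the part of this difference in the Tcf7 ratio was not tested.

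The same count was made in each fibroblast class and in melanocytes. In dermal papilla-like cells 1, Tcf7, was higher (background 5.2%) and 0 were lower (background 5.54%), and in other fibroblast-like cells 0 were higher (background 4.58%) and 1, Lef1, was lower (background 7.14%). In Prss35-led cells 1, Tcf7, was higher (background 6.23%) and 0 were lower (background 8.44%), and in Pclaf-led cells 3, Lef1, Tcf7 and Axin2, were higher (background 5.09%) and 1, Tcf7l1, was lower (background 7.28%). In Dkk1-led cells 2, Lef1 and Tcf7, were higher (background 7.64%) and 0 were lower (background 7.41%), and in Coch-led cells 0 were higher (background 6.93%) and 0 were lower (background 7.13%). In Tnmd-led cells 0 were higher (background 4.49%) and 1, Lef1, was lower (background 7.16%), and in melanocytes 0 were higher (background 6.44%) and 0 were lower (background 8.99%). Tcf7 was thus past 1.5-fold in 4 of these classes and clusters, each time higher, and Lef1 in both directions.

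Melanocytes (105 and 67) had 95.7 and 68.4 CPM of Lef1 (-0.48, -0.97 to -0.013) and 56.9 and 64.7 CPM of Axin2, and 0 members passed 1.5-fold. Immune cells with T cell or innate lymphoid genes had 94.2 and 48.4 CPM of Tcf7.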

How the data were processed

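Single-cell RNA libraries of 1 control and 1 Gli2EKO sample were analysed. The authors made the deposited UMI counts per gene and barcode with Cell Ranger 9.0.1 on GRCm39, from droplet 3′ libraries. Depth was 71021773 UMIs in the control and 48866478 in Gli2EKO. Barcodes with over 1000 and under 8000 genes and a mitochondrial share under 15% were kept, and the 8% of each library with the highest Scrublet doublet scores (scanpy 1.11.5) were removed, since the automatic threshold marked 260 control and 5 Gli2EKO barcodes. Cells were clustered with Seurat 5.3.0 in R 4.3.3 after integration of the libraries by a re-implementation of Harmony (2000 variable genes, 20 components, resolution 0.5), with the 5 genes and the Wnt lists left out of the variable genes. Clusters were named by their highest mean marker score. UMIs were summed by class and library, with exact Poisson intervals for levels, exact conditional binomial intervals for ratios and Clopper-Pearson intervals for shares (scipy 1.17.1). Background percents cover genes with at least 50 UMIs in a class, past 1.5-fold. No test was made, as there was 1 library per genotype. The genes named are the 5 members, class markers, the Wnt lists, and the 5 genes most like each member.

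The members and lists were chosen with earlier results of these data known. The minimum class score of 0.5, the joining of both outer root sheath marker lists and several alternatives were chosen after the data were seen. Alternatives covered doublets, resolution, integration, mitochondrial share, variable genes, gating, thinning and weighting. The ratios and their intervals were tested on simulated counts of the IFE basal-like class, and thinning was checked with Krt14 in cells of that class. Doublet removal, integration, clustering, class naming and weighting were not tested on simulated data.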

Additional observations from a re-analysis of the deposited data

Results flagged for a closer look

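Each of the 5 genes had classes in which its log2 ratio, Gli2EKO over control, lay on opposite sides of 0 with intervals that excluded 0. One class on each side is given for each gene, and the differences between classes were not tested. Lef1 was at 1.29 in IFE basal-like and -1.33 in ORS-like cells. The interval of Lef1 in ORS-like cells overlapped the free-RNA comparison in both libraries, and the ratio was -0.081 (-1.07 to 0.86) with a minimum marker score of 1.0 and -0.84 without integration. Tcf7 was at 1.596 in Pclaf-led fibroblasts and -0.92 in IRS-like cells. Tcf7l1 was at 0.68 in IFE basal-like cells, where the sign turned when no doublets were removed, and -1.06 in the Aldh3a1-led cluster. Tcf7l2 was at 0.25 in the Tagln-led keratinocytes and -1.64 in sebocyte-like cells, with 45 and 26 cells. Axin2 was at 1.53 in Pclaf-led fibroblasts and -0.69 in IFE suprabasal-like cells.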

How the results depend on the processing

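No paired analysis was possible because there was 1 library per genotype. Of 208 alternative values of 26 results, 176 stayed within the counting interval, 31 moved by more and 1 turned the sign of a ratio whose interval had excluded 0. The 176 include values that could not move because the setting left the cells of the group unchanged. Examples are all-keratinocyte ratios at resolutions 0.3 and 1.0, and Lef1 in IFE basal-like and matrix-like cells with a minimum score of 1.0. The count is therefore not a measure of robustness. By sign alone, 10 alternatives differed, of which 9 were of ratios whose reported interval spanned 0 (Lef1 in all fibroblasts, and Tcf7 and Tcf7l2 in IFE basal-like cells). The causes were not tested. The log2 ratio of Lef1 in IFE basal-like cells lay between 0.96 and 1.33, and that of Tcf7 in all fibroblasts between 0.996 and 1.34. With clusters weighted to the control's shares, all-keratinocyte log2 ratios were -0.17 for Lef1, -0.33 for Tcf7, -0.22 for Tcf7l1, -0.064 for Tcf7l2 and -0.27 for Axin2, and Tcf7 in fibroblasts was 0.996. With no doublets removed, IFE basal-like ratios were 0.96 for Lef1, -0.24 for Tcf7l2 and -0.19 for Tcf7l1, the latter 2 with changed sign. With a mitochondrial share under 10% they were 0.20 for Tcf7l1 and -0.13 for Tcf7l2. Both Tcf7l2 values had intervals below 0, against 0.12 as reported. Tcf7l1 was at 0.25 in the marker gate and 0.25 in cells without Dcn and Edar UMIs. In cells without UMIs of 9 follicle genes, Tcf7 was at 0.56 and Tcf7l2 at 0.29. Lef1 in ORS-like cells was at -0.84 without integration and -0.081 with a minimum score of 1.0. The share of Gli2EKO basal cells with a Lef1 UMI was 23.9% with no doublets removed and 23.6% under the 10% limit. Thinned to 5000 UMIs the shares were 21.3% in the control and 45.6% in Gli2EKO. The log2 ratio of Lef1 in IFE basal-like over matrix-like cells, in the control and Gli2EKO, was -2.68 and -0.96 without integration, -2.79 and -1.004 with Wnt genes kept for clustering, and -2.81 and -0.999 at resolution 0.3. In the control it was -2.63 with no doublets removed and -2.85 in the marker gate, and in Gli2EKO -1.34 under the 10% limit. With 1 library per genotype, a difference between genotypes cannot be told apart from a difference between libraries.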

Other observations

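The dermal papilla-like class held a pair of clusters that differed in Lef1. In the Dcc-led cluster, with Rspo2 and Fgf7 among its leading genes, Lef1 was 431 and 493 CPM, a log2 ratio of 0.19 (-0.041 to 0.42). In the Prokr2-led cluster, with Bmp7 and Prdm1 among its leading genes, it was 644 and 469.6 CPM, a log2 ratio of -0.46 (-0.69 to -0.22). Whether the clusters differ in this ratio was not tested.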
